A study of Mus musculus with 4 samples.

Results

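The genes described here are 34 immediate early and heat shock genes of the mouse, chosen by name: 7 AP-1 genes (Fos, Fosb, Fosl2, Jun, Junb, Jund, Atf3), 3 Egr genes (Egr1, Egr2, Egr3), 3 Klf genes, 8 feedback and other early response genes, 2 metallothionein genes and 11 heat shock genes. They are 34 of the 27040 genes listed in all 4 libraries of a droplet single-cell RNA sequencing study of the Achilles tendon, and all 34 were found there. The libraries were Prox1 eGFP tendon at day 0 with no treatment (uninjured), Prox1 eGFP at day 7 and at day 21 after an injury the labels call B/T, and Vegfc CRE tendon at day 7 after B/T. For day 0 the labels conflict: 1 field gives no treatment and the study's design text an uninjured control, while another field gives B/T as for the other libraries. It is called uninjured here after the first 2. Each library pooled the cells of 5 tendons. The age of the mice and how eGFP and CRE are used in these lines are not given in the sources used here. The labels describe a sort for Prox1-expressing cells and, in another field, unsorted cells, so a sort may set how many cells of each class were recovered.

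Immediate early genes are switched on within minutes by growth factors, injury or stress, without new protein synthesis. Fos and Jun proteins pair up as the transcription factor AP-1, Egr proteins bind GC-rich sites, and Zfp36, Dusp1 and Ier family members restrain or follow the response. Heat shock genes answer misfolded protein through the factor Hsf1, and their products are chaperones. Satellite cells, the stem cells of skeletal muscle, are known to switch on both kinds of gene when muscle is damaged or dissociated in the warm, and per the labels' protocols all 4 libraries were made from tissue digested in the warm with collagenase and dispase. How much of any level below arose during digestion was not tested.

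The promoters of 5 genes whose levels the results turn on are shown first. In satellite-like cells most heat shock genes and Fosb moved in opposite directions between days, with Hspa1b an exception described below. RefSeq windows (build GRCm38.p6) were found for 29 of the 34 genes and were read over the 250 bases before the annotated start, 5′ to 3′ on the gene's strand. Capitals mark matches to GAANNTTC, a pair of inverted repeats of the heat shock element, in the heat shock genes and to the Egr site GCGNGGGCG in Fosb, both searched on both strands. Dnajb1 held no match in either of its windows and the first is shown.
Hspa1a, chr17:34972157-34972406, minus strand: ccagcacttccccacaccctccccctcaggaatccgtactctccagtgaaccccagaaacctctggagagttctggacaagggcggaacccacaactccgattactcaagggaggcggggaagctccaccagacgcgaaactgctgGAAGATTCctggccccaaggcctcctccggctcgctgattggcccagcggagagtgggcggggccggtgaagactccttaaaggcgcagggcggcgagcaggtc
Hspa1b, chr17:34959239-34959488, minus strand: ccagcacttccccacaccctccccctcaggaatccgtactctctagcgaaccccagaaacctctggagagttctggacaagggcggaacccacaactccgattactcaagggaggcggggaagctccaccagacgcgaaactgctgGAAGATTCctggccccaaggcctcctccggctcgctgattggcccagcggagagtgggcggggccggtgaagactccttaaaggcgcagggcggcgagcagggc
Hspb1, chr5:135887669-135887918, plus strand: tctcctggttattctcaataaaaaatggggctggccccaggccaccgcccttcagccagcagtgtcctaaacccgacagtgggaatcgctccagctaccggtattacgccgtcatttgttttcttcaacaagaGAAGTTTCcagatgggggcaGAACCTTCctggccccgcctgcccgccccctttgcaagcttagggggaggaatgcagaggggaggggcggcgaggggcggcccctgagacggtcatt
Dnajb1, chr8:83607925-83608174, plus strand: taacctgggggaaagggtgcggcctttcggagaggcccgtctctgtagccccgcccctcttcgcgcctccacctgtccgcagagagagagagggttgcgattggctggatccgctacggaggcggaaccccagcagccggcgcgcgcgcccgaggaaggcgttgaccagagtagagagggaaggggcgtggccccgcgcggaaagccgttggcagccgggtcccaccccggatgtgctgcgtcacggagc
Fosb, chr7:19310046-19310295, minus strand: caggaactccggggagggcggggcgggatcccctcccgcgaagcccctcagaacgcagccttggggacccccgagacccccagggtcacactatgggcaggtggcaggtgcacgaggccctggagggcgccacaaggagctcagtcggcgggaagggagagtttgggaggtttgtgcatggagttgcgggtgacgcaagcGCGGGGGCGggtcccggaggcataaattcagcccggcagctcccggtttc

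GAANNTTC was found in 6 of the 9 heat shock genes with a window (Hspa1a, Hspa1b, Dnaja1, Hspb1, Hspd1 and Hspe1) and in 2 of the 8 AP-1 and Egr genes (Fosl2 and Jun), where 6.69% of all 32851 windows of this length held it. A heat shock element of 3 such repeats, which contains GAANNTTC, was found in Hspd1 and Hspe1 and in 0.466% of all windows. The Egr site was found in 9 of the 29 genes and in 4.7% of all windows. The 29 genes had 38 windows, and a gene counted if any of its windows matched. The shares over all windows are per single window, so the counts of genes and these shares are not measured alike. The windows of Hspa1a and Hspa1b had the same base at 247 of 250 places, and these neighbouring genes on chromosome 17 also share nearly all of their coding sequence. Their reads can be split between them by the counting, so their sum is given beside each.

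Cells were grouped without the 34 genes. Of 26 clusters, 25 took a name from fixed markers, giving 3643 satellite-like cells at Prox1 eGFP day 7, 3408 at day 21, 32 in Vegfc CRE day 7 and 0 at day 0. In the order day 0, day 7, day 21 and Vegfc CRE, the 4 libraries held 6761289, 59312181, 59894792 and 92568978 unique molecular identifiers (UMIs), and 689, 4872, 6303 and 6970 cells were kept, with median UMIs per cell from 6960 to 8460.5. Pairs of libraries shared between 1 and 10 cell barcodes. Levels are UMIs summed over the cells of a class in a library, as counts per 1e6 UMIs of that class (CPM), and are counted at the 3′ end without scaling by gene length. There was 1 library per group, so no p-value is given and no difference could be set against a spread between animals. All intervals are 95% intervals for counting error only.

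Satellite-like cells carried the satellite cell factors Pax7 at 646 and 362 CPM and Myf5 at 541 and 453 CPM at days 7 and 21, and the leukocyte gene Ptprc at 0.0318 and 0.165 CPM. Their 10 satellite markers summed to 4237 CPM at day 7 and 2919 CPM at day 21, with none at 0. The 8 lymphatic markers in them summed to 1425 and 922 CPM and the 10 mature muscle markers to 552 and 227 CPM. The 10 macrophage markers summed to 2318 and 1163 CPM, with 3 and 8 of those 10 at 10 UMIs or more. The 10 mural markers summed to 1386 and 1106 CPM and the 10 fibroblast markers to 838 and 597 CPM. The 9 T and NK markers summed to 0.827 and 1.12 CPM, with 5 and 3 of those 9 at 0. Sex-linked genes also moved with the day, Xist from 199 to 561.0 CPM and the Y-linked Ddx3y from 129 to 12.6 CPM, so the day and the mix of sexes in the pools cannot be told apart. The part of these values in the results below was not tested.

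Satellite-like cells held more AP-1 and Egr transcript than any other class of the same library. The 10 AP-1 and Egr genes took 3.19% of all their UMIs at Prox1 eGFP day 7 (3.18 to 3.20), 2.89% at day 21 (2.88 to 2.90) and 1.36% in Vegfc CRE day 7 (1.31 to 1.42). The 11 heat shock genes took 0.920%, 1.48% and 1.87%. The ratio of the first set to the second was therefore 3.47 at day 7, 1.96 at day 21 and 0.728 in Vegfc CRE. The 34 genes together took 5.23% of UMIs at day 7 and 5.24% at day 21, nearly the same total with another make-up.

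**Figure D1:**
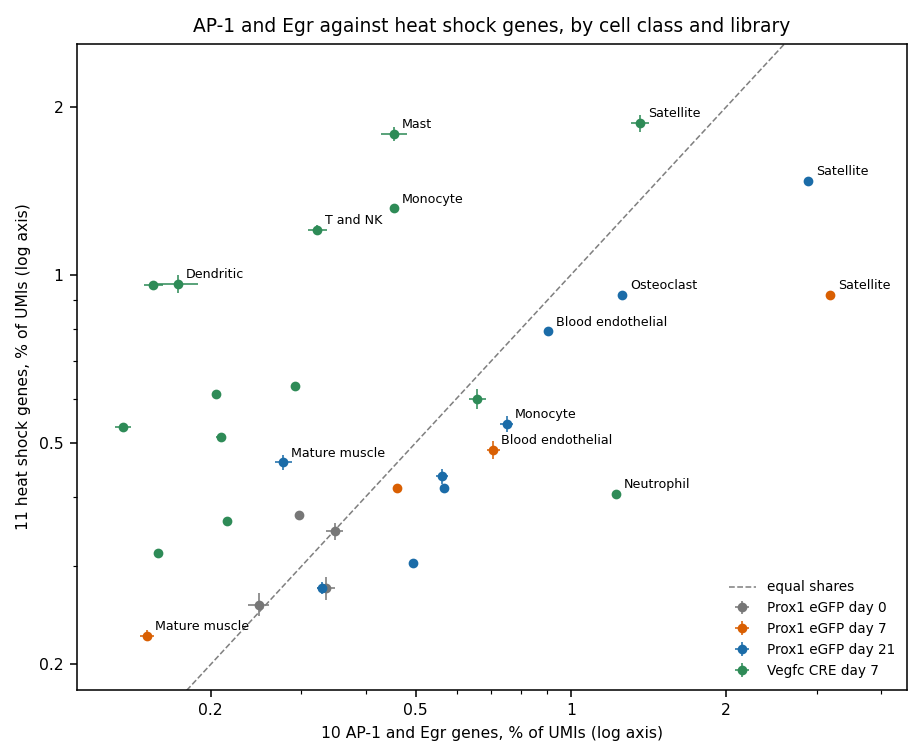
Each point is 1 cell class in 1 library, with the share of its UMIs in the 10 AP-1 and Egr genes on the x axis and in the 11 heat shock genes on the y axis, both in percent on log axes; colours are libraries, bars are 95% counting intervals and the dashed line marks equal shares. Satellite-like cells lie farthest right in their libraries (3.19%, 2.89% and 1.36%), and 12 of the 14 Vegfc CRE classes lie above the line.

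In other classes the AP-1 and Egr share was lower. Lymphatic endothelial-like cells, which line lymph vessels, had 0.459% and 0.415% at day 7 and 0.568% and 0.415% at day 21. Blood endothelial-like cells had 0.708% and 0.485% at day 7, 0.903% and 0.792% at day 21, and 0.204% and 0.612% in Vegfc CRE. Mature muscle-like barcodes had the lowest AP-1 and Egr share at day 7, 0.150% with 0.225% heat shock, and 0.277% with 0.461% at day 21. Across the 4 classes of at least 30 cells at day 0 the AP-1 and Egr share ran from 0.248% to 0.348%, with a median of 0.316%.

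In Vegfc CRE day 7 the heat shock share was the larger one in 12 of 14 classes. The median over 14 classes was 0.253% for AP-1 and Egr genes and 0.622% for heat shock genes, against 0.583% and 0.450% over 4 classes of Prox1 eGFP day 7 and 0.568% and 0.461% over 9 classes of day 21 (0.565% and 0.448% without the osteoclast-like class). The exceptions were neutrophil-like cells, with 1.23% AP-1 and Egr and 0.405% heat shock, and glial-like cells, with 0.659% and 0.600%. Line and library cannot be told apart here. These medians also run over unlike sets of classes. Only satellite-like and blood endothelial-like cells enter the medians of both Prox1 eGFP day 7 and Vegfc CRE day 7. The median share of mitochondrial UMIs per cell was 1.87%, 3.16%, 2.58% and 4.69% in the order day 0, day 7, day 21 and Vegfc CRE, and its part in this balance was not tested.

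At day 7, 29 of the 34 genes were at their highest in satellite-like cells among the 4 classes with at least 30 cells; the exceptions were Klf2, Ier3, Ier5, Dusp1 and Hspb1. Of all 14807 genes with at least 10 UMIs over these classes 26.7% were highest in satellite-like cells. At day 21 this held for 25 of 34 among 9 classes, including all 10 AP-1 and Egr genes, and Hspb1 and Hspd1 were the exceptions among the heat shock genes; 8.46% of all 15179 genes were highest there. Hspd1 was an exception through the osteoclast-like class alone (514 against 477 CPM), and without that class the count was 26 of 34, against 12.3% of all genes. In Vegfc CRE it held for 12 of 34 among 14 classes, including Fos, Fosb, Jun, Jund and Egr1, against 9.38% of all 16432 genes. In that library Junb reached 5378 CPM in neutrophil-like cells against 2085 CPM in satellite-like cells, and Ier3, an early survival gene, 2766 against 181 CPM.

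**Figure D2:**
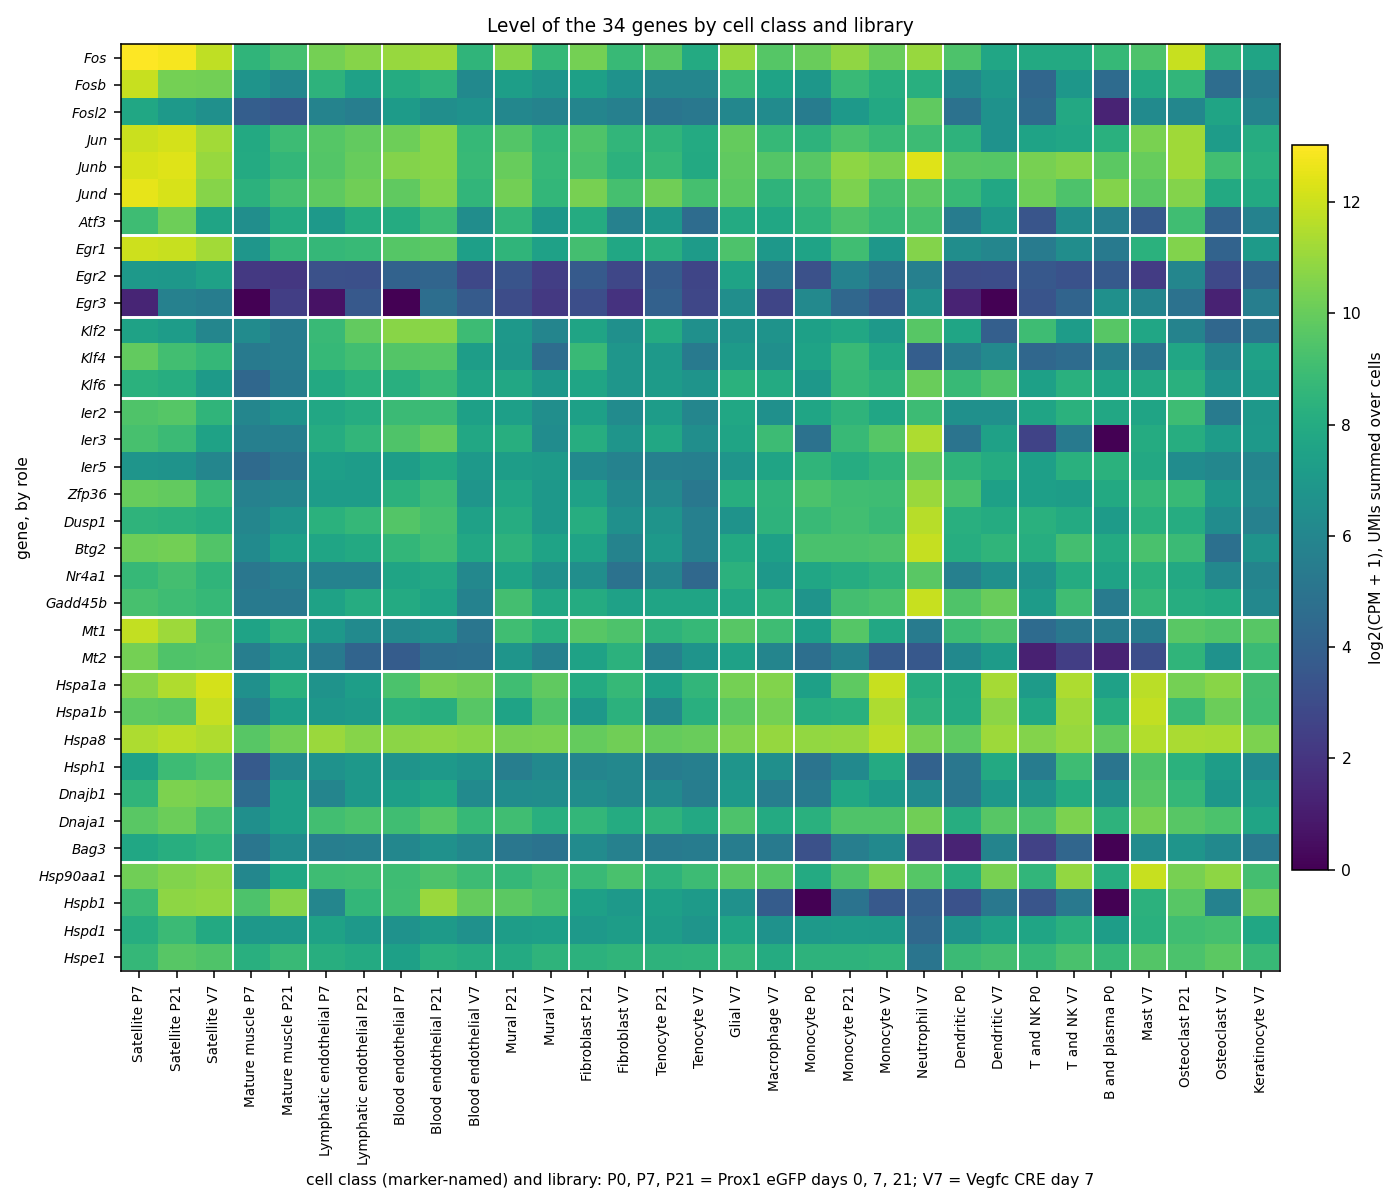
Level of each of the 34 genes (rows, grouped by role) in every cell class with at least 30 cells in a library (columns), as log2(CPM + 1) of summed UMIs. The satellite-like columns of Prox1 eGFP days 7 and 21 are the brightest for Fos, Fosb, Jun and Jund. Neutrophil-like cells of Vegfc CRE are brighter than satellite-like cells of day 7 for Fosl2, Junb and Atf3. Egr3 is dark in every column of Prox1 eGFP day 7.

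In satellite-like cells 4 of the AP-1 genes differed little between the days. Fos, the founding AP-1 subunit, stood at 8303 CPM at day 7, 7416 at day 21 and 3481 in Vegfc CRE. Its partner Jun stood at 4017, 4614 and 2368 CPM, and Junb at 4811, 5419 and 2085 CPM. Jund, the most constitutive Jun gene, stood at 5928, 4843 and 1588 CPM. For these 4 genes days 7 and 21 lay within 1.22-fold of each other and Vegfc CRE was the lowest library.

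Fosb and Atf3 moved far more, and in opposite directions. Fosb, a Fos family subunit, stood at 3826 CPM at day 7, 1265 at day 21 and 1215 in Vegfc CRE, and was 3.02-fold lower at day 21 than at day 7. It was high at day 7 alone. Atf3, a stress-induced factor that pairs with Jun, stood at 495, 1144 and 192 CPM and was 2.31-fold higher at day 21 (2.26 to 2.35). Fosl2 stood at 214, 132 and 90.4 CPM, highest at day 7 as Fosb was.

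Of the Egr genes, Egr1 stood at 4189, 3878 and 2391 CPM and Egr2 at 125, 124 and 175 CPM, and both lay within 1.08-fold between the days. Egr3 stood at 1.59 CPM at day 7 (50 UMIs), 52.2 at day 21 (1264 UMIs) and 45.2 in Vegfc CRE, a 32.8-fold difference between the days (24.7 to 44.5). This gene was near 0 throughout the Prox1 eGFP day 7 library, at 1.09 CPM over all its cells against 28.7, 29.4 and 11.8 CPM in day 0, day 21 and Vegfc CRE. That library was counted with another gene list of 27998 genes, against 32285 in the other 3. Whether the gene model of Egr3 differed was not tested, so this gene is named in the counts below and not described further. For every other member too, Prox1 eGFP day 7 differed from the other libraries in gene list, and gene models were checked for overlaps only.

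Of the 13 Klf, feedback and metallothionein genes 10 were lower at day 21 than at day 7, or 6 with the TMM scaling described below. Klf4, a zinc finger factor induced with AP-1, stood at 939 CPM at day 7, 533 at day 21 and 401 in Vegfc CRE. Mt1 and Mt2, which bind zinc and other metals, stood at 3610 and 1250 CPM at day 7, 2245 and 684 CPM at day 21, and 701 and 735 CPM in Vegfc CRE. Both metallothionein genes and Klf4 were thus highest at day 7. The 8 feedback and other early response genes differed less between the days, from -0.33 on the log2 scale for Ier3 to 0.41 for Nr4a1, an orphan nuclear receptor. Zfp36, which speeds decay of AU-rich messages, stood at 1034, 940 and 452 CPM, and Btg2, an antiproliferative gene, at 1129, 1206 and 718 CPM. Dusp1, a phosphatase that turns off MAP kinases, stood at 351, 328 and 271 CPM, and its count is uncertain because it overlaps a gene present in 1 of the gene lists.

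Most heat shock genes went the other way. Hspb1, a small chaperone of the cytoskeleton, stood at 470 CPM at day 7, 1812 at day 21 and 1893 in Vegfc CRE, and was 3.86-fold higher at day 21 than at day 7 (3.78 to 3.93). Dnajb1, the inducible co-chaperone of HSP70, stood at 369, 1381 and 1272 CPM and was 3.74-fold higher (3.66 to 3.82). Hsph1, which recharges HSP70 with nucleotide, stood at 181, 490 and 650 CPM and was 2.70-fold higher (2.62 to 2.79). For all 3 genes day 7 was the low library, with day 21 and Vegfc CRE close together.

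The inducible HSP70 genes and the other chaperones moved less between the days. Hspa1a stood at 1613, 2832 and 4696 CPM and its near copy Hspa1b at 884, 818 and 3792 CPM. Their sum was 2497, 3651 and 8488 CPM, highest in Vegfc CRE. Hspa1b in Vegfc CRE stood 2.10 above day 7 and 2.21 above day 21 on the log2 scale. The mitochondrial chaperonin pair Hspd1 and Hspe1 stood at 279 and 405 CPM at day 7, 477 and 796 CPM at day 21, and 243 and 695 CPM in Vegfc CRE. Hspa8, the constitutive HSP70 of the cytosol, stood at 2780, 3263 and 2792 CPM, close together in all 3 libraries. Hsp90aa1 (1170, 1521 and 1746 CPM), Dnaja1 (831, 1087 and 588 CPM) and Bag3 (218, 283 and 362 CPM) were each within 1.31-fold between the days. Of the 11 heat shock genes, 10 were higher at day 21 than at day 7, with Hspa1b the exception on the CPM scale but not with TMM factors.

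By a 2-fold rule, 5 of the 34 genes were higher at day 21 than at day 7 in satellite-like cells (Egr3, Hspb1, Dnajb1, Hsph1 and Atf3) and 1 was lower (Fosb). Of all 13980 genes with at least 10 UMIs, 3.45% were at least 2-fold higher and 11.7% at least 2-fold lower, and of the 2599 genes of at least 50 CPM 1.39% and 3.58%. Among those 2599 genes Hspb1 ranked 11th, Dnajb1 13th, Hsph1 25th and Atf3 27th from the top, and Fosb 20th from the bottom. The median log2 ratio was 0.77 over the heat shock genes, -0.06 over the AP-1 and Egr genes and -0.26 over all genes tested. The CPM scale itself bears on the AP-1 and Egr genes: their summed UMIs were lower at day 21, at -0.14 on the log2 scale, but higher, at 0.10, with TMM factors, which moved the median of all genes up by 0.24. The summed heat shock UMIs were higher on both scales, 0.68 and 0.93. With TMM factors 4.79% of all genes were at least 2-fold higher and 7.75% lower.

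**Figure D3:**
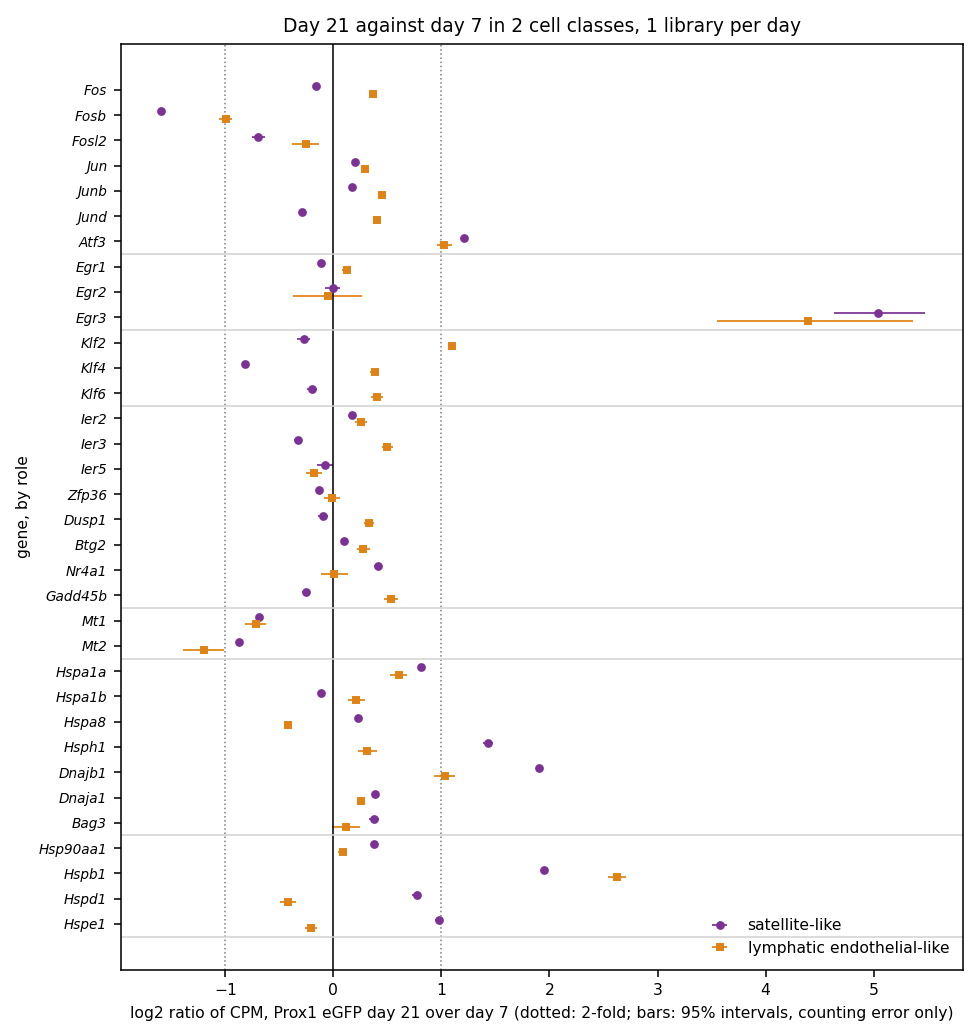
Log2 ratio of CPM, Prox1 eGFP day 21 over day 7, for the 34 genes (rows, grouped by role) in satellite-like cells (circles) and lymphatic endothelial-like cells (squares), with 95% counting intervals, 1 library per day. In satellite-like cells Fosb lies at -1.60, Dnajb1 at 1.90 and Hspb1 at 1.95; dotted lines mark 2-fold.

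Few other genes of both pathways were 2-fold apart. Of 40 other early response genes 39 were tested in satellite-like cells, 1 was at least 2-fold higher at day 21 (Egr4, 0.604 to 2.23 CPM) and 3 were lower, with a median of -0.27. In all 29 of the 39 lay below 0, and their summed UMIs differed by -0.32 on the log2 scale. The median over all 13980 genes tested was -0.26, so the median of this list lay near the background. The lower ones were Srf, the serum response factor that drives Fos and Egr1 (58.3 to 14.9 CPM), Gadd45a (349 to 135 CPM) and Trib1 (367 to 183 CPM). Srf was also at least 2-fold lower at day 21 in lymphatic endothelial-like and mature muscle-like groups. In satellite-like cells of Vegfc CRE it was at least 2-fold lower than at Prox1 eGFP day 7. Day 7 of Prox1 eGFP alone had the list of 27998 genes, so day and gene list cannot be told apart for Srf either. Of 33 other heat shock and chaperone genes tested, 1 was at least 2-fold higher (Dnaja4, an HSP40 co-chaperone, 18.6 to 54.5 CPM) and 0 lower, with a median of 0.09. In all 20 of the 33 lay above 0, and their summed UMIs differed by 0.31, the direction of the heat shock members at a smaller size. The factor Hsf1 itself stood at 23.3 and 24.9 CPM. No gene among 16 of the endoplasmic reticulum stress response and 9 of the metal and oxidative response was 2-fold apart, with medians of -0.03 and -0.34.

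Single satellite-like cells were compared after thinning each to 2000 UMIs, with 3352 cells of each day. Fosb was seen in 90.3% of cells at day 7 and 70.7% at day 21, whereas Dnajb1 was seen in 34.7% and 56.3% and Hspb1 in 30.8% and 52.9%. Unthinned levels in CPM moved in the same directions. No class can be taken to lack these genes, so no background share is given. A day 21 cell drawn at random held more Fosb than a day 7 cell in 22.5% of pairs, with ties split evenly, and 50% would mean no difference. The share was 64.7% for Dnajb1, 63.8% for Hspb1, 63.3% for Hspa1a, 62.8% for Atf3 and 38.2% for Mt2. Apart from Fosb, the distributions of single genes thus overlapped widely.

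Summed over the sets, the median cell held 63 AP-1 and Egr UMIs per 2000 at day 7 and 54 at day 21, and the 10th to 90th percentiles ran from 23 to 123.9 and from 15 to 111. The median cell held 14 heat shock UMIs at day 7 and 22 at day 21, with percentiles of 6 to 36.9 and 8 to 61. A random day 21 cell exceeded a random day 7 cell in 43.4% of pairs for the AP-1 and Egr sum, 65.5% for the heat shock sum and 69.9% for the log2 ratio of heat shock to AP-1 and Egr UMIs. As summed UMIs, the balance of the sets set the days apart more than either sum did. Fosb alone, at 22.5% of pairs, lay farther from no difference than the balance. Across cells the sets were weakly related, with a Pearson r of 0.31 and a Spearman rho of 0.26 at day 7 and 0.40 and 0.42 at day 21, over 3352 cells each, where both sums share a cell's library and depth.

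**Figure D4:**
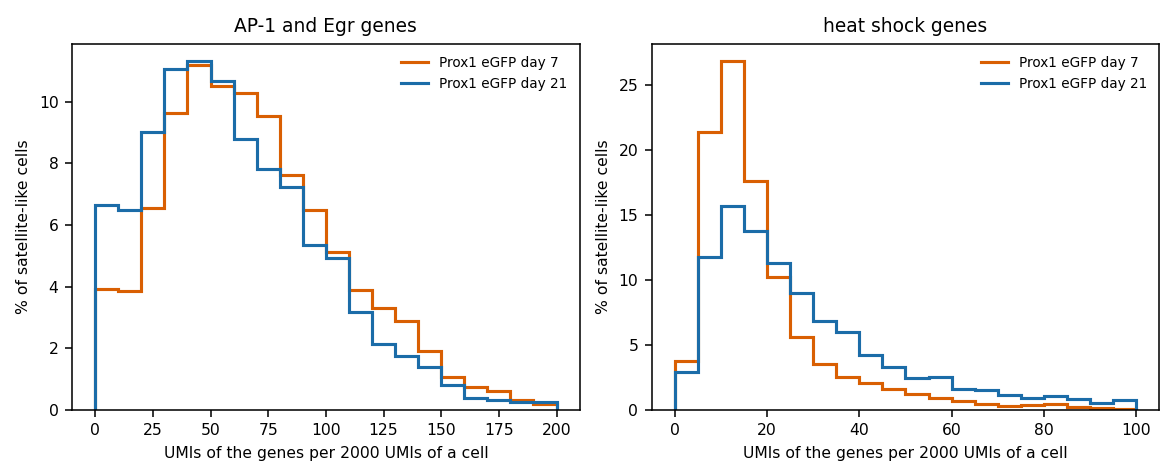
Share of satellite-like cells (y axis, percent) by UMIs of the AP-1 and Egr genes (left) and of the heat shock genes (right) per 2000 UMIs of a cell, for Prox1 eGFP days 7 and 21. The AP-1 and Egr medians are 63 and 54 UMIs and the heat shock medians 14 and 22; cells beyond the drawn axis are 0.358% and 0.239% on the left and 0.298% and 2.118% on the right.

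The satellite-like cells of the days shared clusters but in different proportions, even though the 34 genes were not used to cluster. Cluster 2 held 48.1% of the satellite-like cells of day 7 and 5.37% of those of day 21, cluster 1 held 7.05% and 56.2%, and cluster 0 held 38.4% and 34.1%. Fosb was at least 2-fold lower at day 21 in 5 of 5 satellite-like clusters, from -1.52 to -1.07 on the log2 scale. Dnajb1 and Hspb1 were at least 2-fold higher in 5 of 5, from 1.45 to 2.48 and from 1.06 to 2.07, and Atf3 and Hsph1 in 4 of 5. Among these 5, cluster 24 had fewer than 30 cells at day 21. It gave the lowest Fosb value (-1.52) and the highest Dnajb1 value (2.48). Cluster 15, led by the differentiation genes Myog and Mymk, had the lowest AP-1 and Egr share on both days, 1.31% and 1.32%.

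How far the 34 genes set the days apart was measured by the 15 nearest neighbours of each cell, of which 50% would come from the other day if the days were fully mixed. With variable genes and the members together 5.34% came from the other day, and without the members 5.48%. The 34 genes alone left 33.8% from the other day, the AP-1 and Egr genes 34.6% and the heat shock genes 40.7%. Without Egr3 the 33 other genes left 35.0%. The 40 other early response genes gave 41.9% and the other heat shock and chaperone genes 47.6%. The members thus separated the days in part, and leaving them out barely changed the separation by all variable genes.

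**Figure D5:**
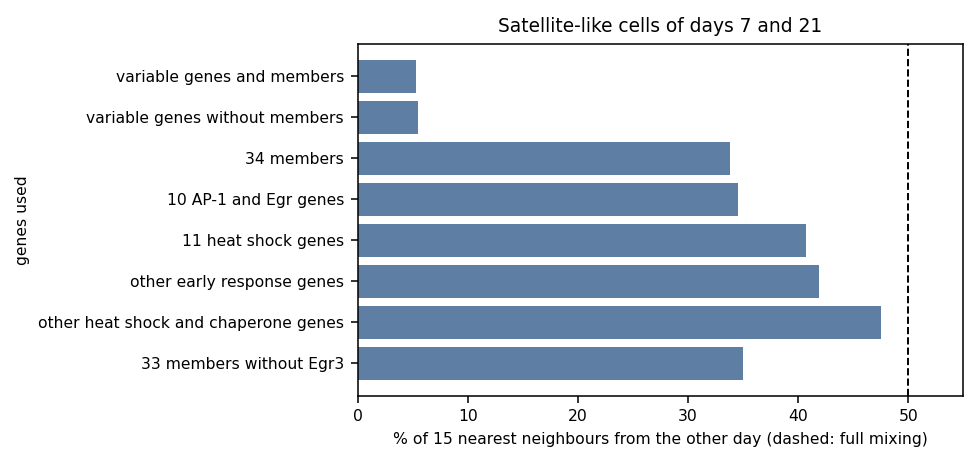
Percent of each satellite-like cell's 15 nearest neighbours that came from the other day (x axis) for 8 sets of genes (y axis), with 3352 cells of each day thinned to 2000 UMIs; the dashed line marks full mixing. The bars run from 5.34% with variable genes and members to 47.6% with the other heat shock and chaperone genes.

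As a share of the squared log2 distance between the summed profiles of the days over genes of at least 50 CPM, the members took 2.26%, and they were 1.27% of those genes (33 of 2599). In lymphatic endothelial-like cells they took 1.78% and were 0.939% of the genes, in mature muscle-like barcodes 3.11% and 1.29%, and in blood endothelial-like cells 0.682% and 0.933%. Leaving out genes that overlap a gene found in only 1 of the gene lists, an alternative chosen after seeing the data, gave 3.01% against 1.28% of the genes in satellite-like, 2.75% against 0.951% in lymphatic endothelial-like, 4.16% against 1.28% in mature muscle-like and 0.798% against 0.942% in blood endothelial-like groups.

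Lymphatic endothelial-like cells (991 at day 7, 1917 at day 21) shared some of these differences. By the 2-fold rule 5 members were higher at day 21 (Egr3, Hspb1, Klf2, Dnajb1 and Atf3) and 1 was lower (Mt2), where 3.76% of 13697 genes were higher and 7.79% lower. Hspb1 stood at 63.1 CPM at day 7 and 389 at day 21, a 6.17-fold difference (5.82 to 6.54). Dnajb1 stood at 60.3 and 123 CPM, 2.04-fold apart (1.91 to 2.19), and Atf3 at 126 and 256 CPM, 2.04-fold apart (1.94 to 2.14). Fosb was lower at day 21 here too, 343 against 172 CPM, 1.99-fold (1.91 to 2.08). Within cluster 18 Fosb was not lower (121 and 136 CPM), and Atf3 was lower in cluster 6 (121 and 99.0 CPM) and higher in clusters 3 (173 and 357 CPM) and 18 (52.5 and 324 CPM). Leaving out the dividing cluster 18, where 3.47% of all genes were higher and 6.66% lower, or taking the mean over cells, where 3.85% were higher and 8.83% lower, left 2 members higher (Egr3 and Hspb1) and 2 lower (Fosb and Mt2). Klf2, Dnajb1 and Atf3 were then within 2-fold.

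Klf2, a factor induced by flow in endothelium, was 2.14-fold higher at day 21 in lymphatic endothelial-like cells (447 against 954 CPM, 2.08 to 2.19). In satellite-like cells it stood at 178 and 148 CPM, a log2 ratio of -0.27 beside a median of -0.26 over all genes, and was higher in 3 of 5 satellite-like clusters.

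Some members pointed opposite ways in satellite-like and lymphatic endothelial-like cells. Fos was higher at day 21 in lymphatic endothelial-like cells (1260 against 1619 CPM) and lower in satellite-like cells, and so were Jund (882 against 1168 CPM) and Klf4 (418 against 545 CPM), although in lymphatic cluster 6 both were lower (943 and 828 CPM, 475 and 455 CPM). The chaperonin gene Hspd1 was lower in lymphatic endothelial-like cells (178 against 133 CPM) and higher in satellite-like cells, as was Hspa8 (2162 against 1616 CPM). Hspd1 depended on the lymphatic cluster, at 136.8 and 136.6 CPM in cluster 3, 135 and 113 CPM in cluster 6 and 277 and 201 CPM in cluster 18. The summed heat shock share was 0.415% on both days in lymphatic endothelial-like cells, a log2 ratio of -0.0012, or 0.16 with TMM factors. Of the 11 genes 8 were higher at day 21 and 3 lower, with a median of 0.21 beside -0.17 over all genes tested. The higher summed share of day 21 in satellite-like cells was thus not found in this class on the CPM scale. With TMM factors Fos was higher at day 21 in satellite-like cells too, by 0.08 on the log2 scale. Fos also depended on the lymphatic cluster, at 1706 and 2102 CPM in cluster 3, 524 and 976 CPM in cluster 18 and 1280 and 1067 CPM in cluster 6. With every cell weighted equally the AP-1 and Egr sum of this class differed by -0.0026 on the log2 scale, against 0.31 for summed UMIs.

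Mature muscle-like barcodes (136 and 108) had 12 members at least 2-fold higher at day 21 and 0 lower, where 9.44% of 8982 genes were higher and 11.9% lower. Dnajb1 stood at 22.1 and 168 CPM, 7.63-fold apart (5.65 to 10.41), Hsph1 at 11.9 and 73.1 CPM, 6.14-fold apart (4.0 to 9.58), and Hspb1 at 670 and 1612 CPM, 2.41-fold apart (2.25 to 2.58). Egr1 stood at 113 and 411 CPM, 3.63-fold apart (3.12 to 4.23). Weighting every barcode equally left 4 higher (Atf3, Hsph1, Dnajb1 and Hspb1) and 7 lower, where 8.39% of genes were higher and 23.1% lower, and turned the summed AP-1 and Egr genes from 0.88 to -0.48 on the log2 scale while the heat shock sum stayed above 0, at 1.03 and 0.60. The direction of the AP-1 and Egr genes in this class thus depended on the weighting. Satellite markers in these barcodes stood at 3.05% of their satellite-like level at day 7 and 5.51% at day 21, AP-1 and Egr genes at 4.71% and 9.58% and Dnajb1 at 5.97% and 12.2%, and the part of this in the result was not tested.

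Blood endothelial-like cells (33 and 120) had 3 members at least 2-fold higher at day 21 (Egr3, Hspb1 and Hspa1a) and 0 lower, where 8.02% of 9875 genes were higher and 10.7% lower. Hspb1 stood at 524 and 2145 CPM, 4.10-fold apart (3.65 to 4.61). Fosb stood at 259 and 342 CPM and so was not lower at day 21 in this class. Across the 4 classes compared, Hspb1 was at least 2-fold higher at day 21 in 4 of 4 and Dnajb1 and Atf3 in 3 of 4, or 2 of 4 with the mean over cells in lymphatic endothelial-like cells. Day 7 alone was counted with the list of 27998 genes, so day and gene list cannot be told apart for Hspb1 or the other members. Fosb was at least 2-fold lower in satellite-like cells and, with the mean over cells, also in lymphatic endothelial-like and mature muscle-like groups. Whether the classes differ could not be tested with 1 library a day.

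The Vegfc CRE day 7 library could be set against Prox1 eGFP day 7, at the same time after injury, in satellite-like and blood endothelial-like cells. In blood endothelial-like cells (676 against 33) 18 members were at least 2-fold lower in Vegfc CRE and 3 higher (Egr3, Hspa1b and Mt2), where 14.9% of 12116 genes were lower and 7.11% higher. Fos stood at 2028 CPM in Prox1 eGFP and 363 in Vegfc CRE, 5.58-fold lower (5.22 to 5.97), and Egr1 at 768 and 164 CPM, 4.68-fold lower (4.21 to 5.20). Hspa1b stood at 332 and 787 CPM, 2.37-fold higher (2.07 to 2.74). The lymphatic factor Prox1 stood at 781 CPM in this class at Prox1 eGFP day 7, 152 at day 21 and 3.13 in Vegfc CRE, so the make-up of the class differed, and its part in the result was not tested. In the 32 satellite-like cells of Vegfc CRE 12 members were at least 2-fold lower and 6 higher than in Prox1 eGFP day 7, where 12.3% of 13319 genes were lower and 10.2% higher. Those 32 cells had a median of 4863.5 UMIs and 7.50% mitochondrial UMIs, against 7737 and 3.24% at Prox1 eGFP day 7, and the part of this in the result was not tested. The 6 were Egr3, Hspa1b, Hspb1, Hsph1, Dnajb1 and Hspa1a.

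Set against Prox1 eGFP day 21, where line and time both differ, 7 classes could be compared. Jund was at least 2-fold lower in Vegfc CRE in 7 of 7, Fos, Atf3, Egr1 and Klf2 in 6 of 7, and Hspa1b was at least 2-fold higher in 7 of 7. Without the osteoclast-like class these counts were 6 of 6, 5 of 6 and 6 of 6. By the same rule 22 members were lower and 1 higher in blood endothelial-like cells, where 9.62% of all genes were lower and 8.95% higher. The counts were 13 and 1 in mural-like cells (11.5% and 12.3% of all genes), 13 and 1 in fibroblast-like cells (8.61% and 9.7%) and 13 and 3 in tenocyte-like cells (7.85% and 8.8%). They were 10 and 1 in satellite-like cells (9.14% and 14.9%), 5 and 4 in monocyte-like cells (12.3% and 10.9%) and 21 and 2 in osteoclast-like cells (30.3% and 18.3%). The members' share of lower genes lay near the background in monocyte-like cells and above it in the other 6 classes. In fibroblast-like cells Fos stood at 1253 CPM at Prox1 eGFP day 21 and 439 in Vegfc CRE, and Hspa1b at 122 and 331 CPM. In tenocyte-like cells, the tendon's own matrix-making cells, Fos stood at 791 and 251 CPM and Hspa1b at 67.0 and 291 CPM. At day 21 satellite markers in tenocyte-like cells stood at 7.50% of their satellite-like level and Fos at 10.7%. In fibroblast-like cells these were 1.91% and 16.9%, and the part of this in the comparisons was not tested.

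Against the uninjured library the immune classes of Vegfc CRE held more heat shock transcript, 0.371% against 1.20% of UMIs in T and NK-like cells and 0.347% against 1.32% in monocyte-like cells. In T and NK-like cells (400 at day 0, 155 in Vegfc CRE) 15 members were at least 2-fold higher in Vegfc CRE and 1, Klf2, was lower, where 13.4% of 10317 genes were higher and 13.7% lower. Hspa1a stood at 138 and 2702 CPM there, 19.5-fold apart (17.7 to 21.5), and Hsp90aa1 at 374 and 1897 CPM, 5.07-fold apart (4.70 to 5.47). Fos stood at 239 and 236 CPM. In dendritic-like cells (55 and 44) 13 members were higher and 4 lower, where 10.6% of 7005 genes were higher and 26.8% lower. In monocyte-like cells (55 and 755) Hspa1a stood at 166 and 3938 CPM, Ier3 at 29.4 and 762 CPM and Fos at 1074 and 1045 CPM. Injury, line and library cannot be told apart in these comparisons, and the labels conflict on the treatment of day 0.

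RNA freed from lysed cells can enter other barcodes, and satellite-like cells were the most common class at days 7 and 21. In the other classes of Prox1 eGFP days 7 and 21, leaving out the osteoclast-like cluster, satellite markers stood at 0.114% to 7.50% of their satellite-like level, AP-1 and Egr genes at 4.71% to 31.3% and heat shock genes at 18.6% to 53.6%. In 10 of 10 class and library groups both sets stood above the satellite markers on this measure. Other classes can make genes of both sets themselves, so this measure cannot decide how much was freed RNA, and that was not tested. The osteoclast-like cluster of day 21 held satellite markers at 48.4% of the satellite-like level, and it enters the counts over 7 classes and the values over 9 classes of day 21 above, given there without it too.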

How the data were processed

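For each of 4 libraries the authors deposited a matrix of raw UMI counts, and the submitters' processing notes name Cell Ranger 5.0.1 and mm10. Genes listed in all 4 libraries were kept (27040). Barcodes with fewer than 500 genes, fewer than 1000 UMIs or a mitochondrial share of 15% or more were dropped, which removed 27, 179, 316 and 1640 barcodes of day 0, day 7, day 21 and Vegfc CRE. Scrublet in scanpy 1.11.5 called 1, 0, 85 and 101 doublets, so it had not worked at day 7, and removing the 4, 190, 326 and 400 highest scores was an alternative.

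Without the 34 members, cells were clustered by leidenalg 0.10.2 (resolution 1.0) on 30 components of 2000 variable genes, with 15 neighbours. A cluster was named X-like from at least 3 fixed markers, each present in 20% or more of its cells and raised 2-fold or more over the rest. UMIs were summed per class and library where at least 30 cells were present, and single clusters were allowed slightly fewer. CPM had exact Poisson intervals and ratios exact conditional binomial intervals at 95%. A gene needed 10 UMIs over both libraries, and a difference was called at 2-fold by size alone. A count of 0 was set to 3 counts for a fold. Cells were thinned to 2000 UMIs for shares of cells and neighbours, which left out 31 cells of day 7 and 56 of day 21. TMM factors came from edgeR 4.0.16 in R 4.3.3. The calculation was tested on simulated counts.

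Members named in the text are all 34 or those at least 2-fold apart. The members and lists were chosen with earlier results of these data known. Added alternatives on clusters, the osteoclast-like class and overlapping gene models were chosen after seeing the data. Gene overlaps were read from GENCODE positions of mm10. Promoter windows came from RefSeq, and 5 members (Ier2, Egr1, Egr3, Hspa8 and Hsp90aa1) had no entry used here.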

Additional observations from a re-analysis of the deposited data

Results flagged for a closer look

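Mt2, a metallothionein gene, pointed opposite ways in 2 cell classes between Prox1 eGFP day 7 and day 21, with 1 library a day. In mature muscle-like barcodes it stood at 46.2 CPM at day 7 and 99.7 CPM at day 21, a log2 ratio of 1.11, and as a mean over barcodes it was not at least 2-fold higher. In lymphatic endothelial-like cells it stood at 40.0 and 17.4 CPM, a log2 ratio of -1.20. The difference between the classes was not tested. Satellite-like cells, where Mt2 stood at 1250 and 684 CPM, lay between them at -0.87.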

How the results depend on the processing

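No paired analysis was possible because each group was 1 library. Of 510 recomputed values of single members in satellite-like cells (day 21 against day 7, 15 alternatives), 496 kept their sign, and the 14 that did not belonged to members within 2-fold. Fosb, Atf3, Egr3, Hsph1, Dnajb1 and Hspb1 were at least 2-fold apart in 15 of 15, and Hspa1a, Hspd1 and Hspe1 joined them with TMM scaling, giving 8 higher.

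The AP-1 and Egr log2 ratio of satellite-like cells was -0.14 as reported and also with doublets kept, -0.18 at resolution 2.0, with members among the clustering genes and without the top doublet scores, -0.20 as a mean over cells and without clusters 15 and 24, -0.17 in cells gated on Pax7 or Myf5, -0.24 in cluster 0 alone and 0.10 with TMM scaling. The heat shock log2 ratio was 0.68 as reported, 0.65 with members among the clustering genes, 0.66 at resolution 2.0, without the top doublet scores, as a mean over cells and in gated cells, 0.69 with a stricter filter, 0.93 with TMM scaling and 0.39 in cluster 0.

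In lymphatic endothelial-like cells 2 members were lower with members among the clustering genes and 0 with doublets kept; as a mean over cells or without cluster 18, 2 were higher and 2 lower. In mature muscle-like barcodes the mean over cells gave 4 higher and 7 lower. In blood endothelial-like cells, Vegfc CRE against Prox1 eGFP day 7, 5 were higher with a stricter filter or TMM scaling. Neighbours from the other day came to 7.37% and 7.54% with and without members at 50 neighbours, 2.71% and 2.70% at 4000 UMIs, and 7.13% and 7.48% without overlapping genes, and to 30.2% for the 34 members at 4000 UMIs. The cause was not tested.

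With 32 and 33 cells, the Vegfc CRE satellite-like and Prox1 eGFP day 7 blood endothelial-like groups give the least precise values.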
